A study of Mus musculus with 6 samples.

Results

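Neurotrophins and their receptors were followed in the prelimbic cortex (PLc), part of the medial prefrontal cortex, after sub-chronic ketamine. The group held 6 genes, chosen by symbol from the 37620 genes of the table. They were Bdnf and Ntf3, which encode brain-derived neurotrophic factor (BDNF) and neurotrophin 3, Ntrk2 and Ntrk3, which encode the receptors TrkB and TrkC, Ngfr, which encodes the p75 neurotrophin receptor, and Sort1, which encodes sortilin. RNA Seq was performed on the PLc of 3 saline mice (numbers 1, 6 and 10) and 3 ketamine mice (numbers 3, 5 and 9), all of strain C57Bl/6 and 9 weeks old, with a library for each mouse. The study's methods describe male mice. Ketamine, a blocker of the NMDA type of glutamate receptor, was injected intraperitoneally at 30 mg/kg each day for 5 days, controls received the saline vehicle on the same days, and tissue was taken 2 days after the last injection. The study expected BDNF signalling to be activated in the ketamine mice, and the comparison below asks how the RNA of the family differed between the groups.

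Neurotrophins are made as longer precursors that are cut to mature ligands. Mature BDNF binds the tyrosine kinase TrkB and mature neurotrophin 3 binds TrkC, which support the growth, survival and synaptic plasticity of neurons, whereas p75 with sortilin binds the uncut precursors and can signal cell death. In the cortex, BDNF is made largely by excitatory neurons in response to activity, TrkB is found in neurons and, in a truncated form without the kinase, in astrocytes, and p75 is best known from cholinergic neurons of the basal forebrain.

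Coordinates refer to mm9 and its GENCODE M1 annotation. Bdnf (ENSMUSG00000048482) lies at chr2:109514857-109567204 on the plus strand and Ntf3 (ENSMUSG00000049107) at chr6:126051431-126116762 on the minus strand. Ntrk2 (ENSMUSG00000055254) lies at chr13:58907957-59235331 on the plus strand, Ntrk3 (ENSMUSG00000059146) at chr7:85337248-85723294 on the minus strand, Ngfr (ENSMUSG00000000120) at chr11:95430132-95449049 on the minus strand and Sort1 (ENSMUSG00000068747) at chr3:108087009-108164429 on the plus strand. Reads were counted per gene, so transcripts of a gene were summed. For Bdnf this merges 10 annotated transcripts, which start at several promoters. For Ntrk2 it merges 5 coding transcripts with coding regions of 1365 to 2463 bases, so the full-length receptor and shorter forms cannot be told apart. The 2 coding transcripts of Ntrk3, with coding regions of 1836 and 2475 bases, were summed in the same way. Sort1 was the only member to share exon bases with another gene, 329 bases with Gm12523 on the opposite strand, which had a mean of 4.91 normalized counts.

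The promoter of Bdnf that holds the core of a cAMP response element is shown because Bdnf was the member whose groups did not overlap (values below) and because its transcription is known to respond to activity through such elements. RefSeq lists 7 promoters for Bdnf, and this is the third along the gene. The 250 bases before its start, taken from RefSeq on GRCm38.p6 and matched base for base to mm9, lie at chr2:109532343-109532592 on the plus strand. The window held 0 exon bases of Bdnf in GENCODE M1, was intronic to 5 longer Bdnf transcripts, and ended 1 base before the nearest annotated transcript start. Capitals mark the core, TGACG read on the other strand, with 30 bases between it and the start.
Bdnf promoter: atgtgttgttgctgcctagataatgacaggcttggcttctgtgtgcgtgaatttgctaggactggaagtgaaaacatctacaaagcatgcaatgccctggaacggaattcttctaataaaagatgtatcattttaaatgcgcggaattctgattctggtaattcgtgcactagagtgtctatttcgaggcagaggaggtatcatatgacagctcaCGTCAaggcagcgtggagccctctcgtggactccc
The core was found on either strand in 1 of 7 Bdnf promoters, in 0 of 2 Ntf3 promoters, in 0 of 1 for Ntrk2 and in 0 of 1 for Ngfr. It was found in 5836 (17.8%) of all 32851 RefSeq promoters of the same length. A match describes the letters of the window only.

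Members of a family can share reads where their sequences are alike. The longest runs shared by the coding regions of the ligands and of the Trk receptors are shown because they bear on how far the counts of related members are separate.
Bdnf and Ntf3: atagacacttcctgtgt
Ntrk2 and Ntrk3: gacccactcatcatggtctttga
The first run, of 17 bases, lies at chr2:109564262-109564278 in Bdnf and chr6:126051778-126051794 in Ntf3. The second, of 23 bases, lies at chr13:59155768-59155790 in Ntrk2 and chr7:85395623-85395645 in Ntrk3. With Ntf5 included, the longest runs shared between pairs of ligands were 10 to 18 bases.

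The libraries held 26273436 to 32643726 reads, and saline and ketamine mice overlapped in depth. Excitatory neuron markers of the cortex were abundant in every library. Several libraries stood apart in markers of other cell types or tissue. Markers of striatal medium spiny neurons (12 genes) summed to 10108 to 12627 normalized counts in the saline mice, 65494 and 34687 in mice 3 and 5 of the ketamine group, and 9072 in its mouse 9. Olfactory bulb markers (5 genes) summed to 197 to 274 in the saline mice and to 1198 to 8684 in the ketamine mice, with the highest value in mouse 9. Every ketamine mouse was above every saline mouse for 4 of these 5 and for 4 of the 12 striatal markers, against 5.69% of the 16127 genes tested below. DESeq2 called 3 olfactory bulb and 4 striatal markers higher, against 0.899% of genes tested, whereas limma and edgeR called 0 of either list. Oligodendrocyte markers (6 genes) summed to 375412 in saline mouse 10, against 43443 to 159720 in the other mice, and choroid plexus markers (4 genes) to 2911 against 93.1 to 236. Markers of GABAergic neurons (6 genes) summed to 17154 to 21392 in the saline mice and to 23884 to 39122 in the ketamine mice. For 3 of these 6, Gad1, Gad2 and Slc32a1, every ketamine mouse was above every saline mouse, against 5.69% of genes tested. For 1, Pvalb, every ketamine mouse was below, against 4.66% of genes tested. limma and edgeR called 0 of the 6, and DESeq2 called Pvalb lower (adjusted p = 0.0321), against 0.229% of genes tested. None of the GABAergic, striatal, olfactory bulb, oligodendrocyte or choroid plexus markers was at 0 in any library. Their part in the results on the 6 members was not tested, except where values are given below.

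All 6 members passed the filter of a mean of 10 normalized counts (reads scaled by the size factor of their library). Expression was compared on log2(normalized count + 1), a scale that understates the change of low genes, with limma over the 16127 genes that passed. At an adjusted p under 0.05 limma called 0 of 6 members, and it called 0 genes in all (0.0%). edgeR also called 0 genes (0.0%), and DESeq2 called 182 (1.13%), of which 0 were members. Before adjustment, 2 of 6 members had a limma p under 0.05 (Bdnf and Ngfr), against 937 genes in all (5.81%), of which 382 (2.37%) were lower in ketamine as Bdnf was. edgeR gave 1007 genes (6.24%) before adjustment. Bdnf was the only member whose groups did not overlap, with every ketamine mouse below every saline mouse, which held for 4.66% of genes tested. Groups that did not overlap in either direction made up 10.3% of genes. With 3 mice against 3, the exact permutation test used for single genes cannot give a p under 0.1.

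**Figure D1:**
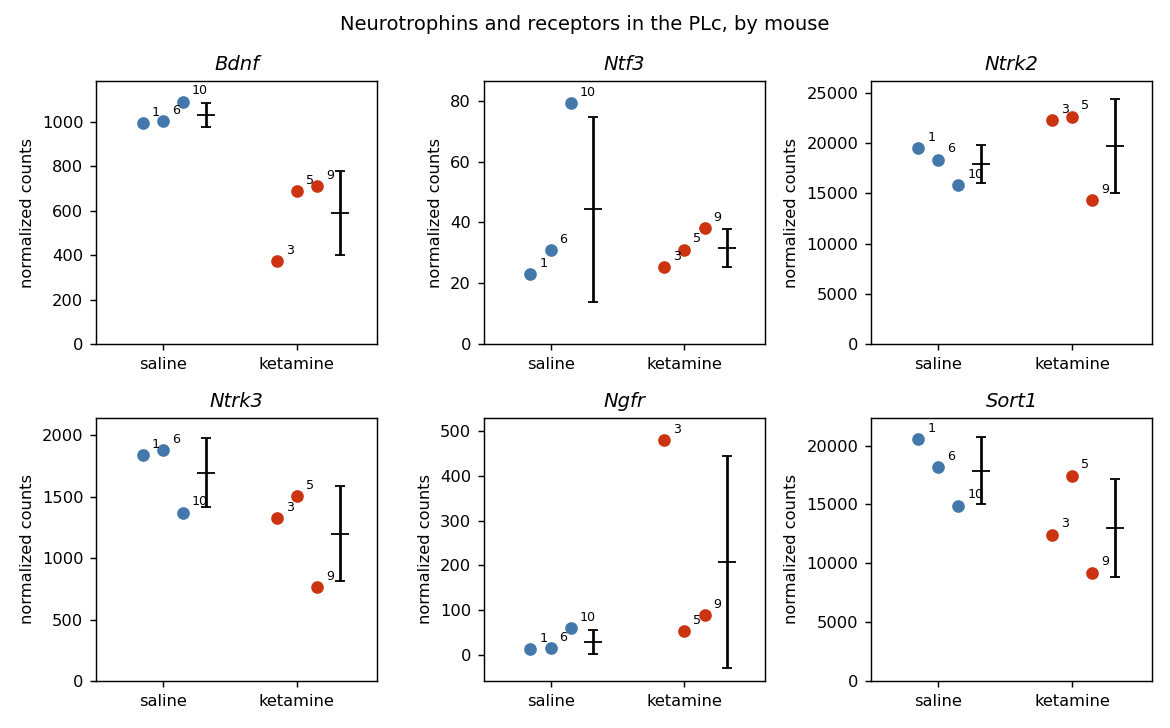
Normalized counts (y axis, linear) of the 6 genes in each mouse, with saline mice in blue and ketamine mice in red, each labelled by its number. The black mark and bar give the mean ± SD of 3 mice. The 3 ketamine values of Bdnf, 374 to 712, lie below the 3 saline values, 994 to 1090.5, whereas the groups of the other 5 genes overlap, and the ketamine mean of Ngfr is drawn up by mouse 3.

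Bdnf, the ligand of TrkB, had 994, 1002 and 1090.5 normalized counts in mice 1, 6 and 10 of the saline group. In mice 3, 5 and 9 of the ketamine group it had 374, 688 and 712. The saline mice lay close together and all ketamine mice were lower, mouse 3 most of all. The means were 1029 ± 53.5 and 591 ± 188 (SD, n = 3 each), a ratio of 0.574 (exact permutation test, two-sided, p = 0.1). The limma log2 fold change was -0.86 (SE 0.253, 95% interval -1.45 to -0.26). Before adjustment its limma p ranked 289 among the 16127 genes. The difference did not pass adjustment (limma adjusted p = 0.628, edgeR 0.628, DESeq2 0.177). With ketamine mouse 3 left out, the log2 fold change came to -0.55 (limma adjusted p = 0.99), and with any other mouse left out it lay between -1.02 and -0.81. The library of ketamine mouse 3 was also the lowest in excitatory neuron markers of the cortex, as the next values show.

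Bdnf was set beside 6 markers of cortical excitatory neurons, among them Slc17a7, the vesicular glutamate transporter of these cells, and the transcription factors Neurod2, Neurod6, Tbr1 and Emx1. The mean log2 level of the markers, as a difference from the saline mean, was 0.17, 0.10 and -0.27 in mice 1, 6 and 10 of the saline group, and -1.36, -0.37 and -0.62 in mice 3, 5 and 9 of the ketamine group. On the same scale Bdnf was -0.05, -0.04 and 0.09 in the saline mice and -1.46, -0.58 and -0.53 in the ketamine mice. Both were lowest in ketamine mouse 3. In other mice the order differed. Among the saline mice, mouse 10 had the lowest marker mean and the highest Bdnf. Ketamine mouse 9 was below ketamine mouse 5 in the markers and above it in Bdnf. All 6 markers had a log2 fold change below 0 (median -0.67). limma and edgeR called 0 of them, and DESeq2 called Neurod6 lower (log2 fold change -1.28, adjusted p = 0.00459). For 2 of them, Neurod2 and Neurod6, every ketamine mouse was below every saline mouse, which held for 4.66% of genes tested. The summed marker level was 44420 to 63275 normalized counts in the saline mice and 26828 to 49701 in the ketamine mice. When the marker mean of each library was subtracted from its Bdnf value, the difference between ketamine and saline was -0.08 on the log2 scale (SD 0.31 in saline and 0.15 in the ketamine mice). The groups then overlapped (exact permutation test, two-sided, p = 0.9). The markers and Bdnf come from the same libraries, and in bulk tissue fewer cells of a type and less RNA per cell cannot be told apart. Markers of cortical layers did not all fall. Of 4 upper layer markers, 1 had a log2 fold change above 0 and 3 below (median -0.29). Of 4 deep layer markers, 2 were above (Foxp2 0.92, Sulf1 0.88) and 2 below (Fezf2 -1.11, Etv1 -0.40), with a median of 0.24. limma, edgeR and DESeq2 called 0 of these 4. Foxp2 and Sulf1 were highest in ketamine mouse 3, at 1375 and 918 normalized counts, and next highest in ketamine mouse 5, at 600 and 724. These libraries also had the highest striatal marker sums, given above, and the part of this in the 2 genes was not tested.

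**Figure D2:**
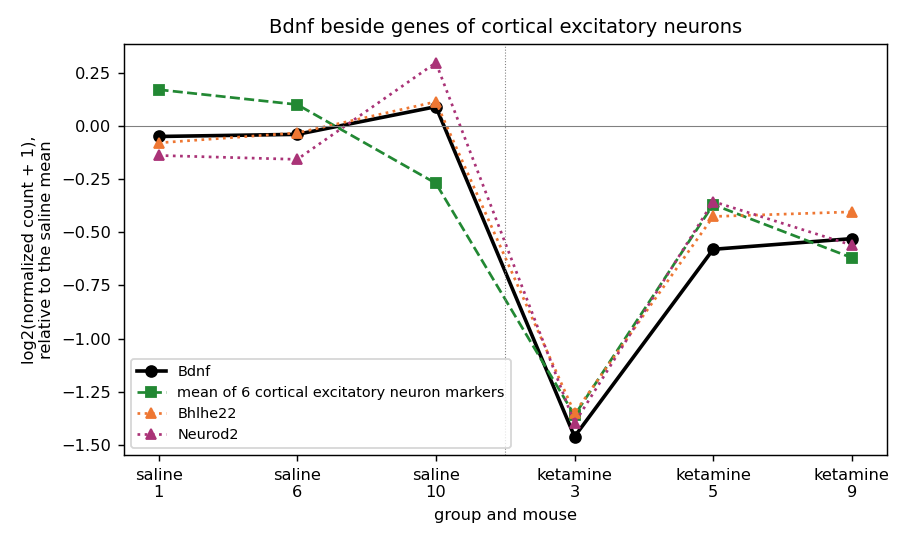
Log2(normalized count + 1) relative to the saline mean (y axis) in each of the 6 libraries (x axis) for Bdnf, the mean of 6 cortical excitatory neuron markers, Neurod2 and Bhlhe22. Lines only join the values of a gene. In ketamine mouse 3 Bdnf is at -1.46 and the marker mean at -1.36, and in ketamine mice 5 and 9 all 4 lines lie below 0. Bhlhe22 and Neurod2 were chosen for their likeness to Bdnf in these same libraries, and Neurod2 is also among the 6 markers. The 4 lines are therefore not independent.

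The genes most like Bdnf across the 6 libraries were Bhlhe22, a transcription factor of cortical projection neurons, Arhgef25 and Neurod2. Likeness is the root mean square difference of log2 values centred on each gene's mean, over the 12409 other genes that averaged 100 normalized counts or more, and it was 0.068, 0.136 and 0.136 for these genes. Bhlhe22 had 1405, 1452 and 1607 normalized counts in the saline mice and 582, 1105 and 1122 in the ketamine mice. As with Bdnf, every ketamine mouse was lower, which held for 4.66% of genes tested, and mouse 3 was the lowest. A gene chosen for its likeness to Bdnf in these 6 libraries shares its pattern by that choice, so this is no separate evidence. The 6 libraries are the only points behind this measure, and they share their differences in tissue composition.

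Ntf3, the ligand of TrkC, was low in every mouse, with 24 to 72 reads per library. It had 23.0, 30.9 and 79.1 normalized counts in mice 1, 6 and 10 of the saline group and 25.45, 31.1 and 38.1 in mice 3, 5 and 9 of the ketamine group. Saline mouse 10 stood above the other 5 mice, whose values were intermixed. The means were 44.3 ± 30.4 and 31.5 ± 6.32 (SD, n = 3 each; exact permutation test, two-sided, p = 0.9), and the limma log2 fold change was -0.30 (SE 0.472, 95% interval -1.40 to 0.81, adjusted p = 0.999). Without saline mouse 10 it was 0.22, above 0 (limma adjusted p = 0.877). Saline mouse 10 was the library with the highest oligodendrocyte and choroid plexus markers, given above, and the part of this in its Ntf3 value was not tested. The genes most like Ntf3 were Sgk1, a kinase induced by glucocorticoids, Arrdc2 and Itga7, with a root mean square difference of 0.192, 0.205 and 0.225. All 3 were highest in saline mouse 10, where Sgk1 had 3246 normalized counts against 1440 to 1928 in the other mice. They share this with Ntf3 through their choice by likeness.

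Ntf5, the gene of neurotrophin 4, was below the filter and was not tested with limma. It had 6.71, 8.69 and 4.39 normalized counts in the saline mice and 2.94, 3.76 and 0.91 in the ketamine mice.

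Ntrk2, the gene of TrkB, had 19538, 18364 and 15833 normalized counts in mice 1, 6 and 10 of the saline group. In mice 3, 5 and 9 of the ketamine group it had 22277, 22632 and 14366. Ketamine mice 3 and 5 were above all saline mice and ketamine mouse 9 was below them. The means were 17912 ± 1894 and 19758 ± 4673 (SD, n = 3 each; exact permutation test, two-sided, p = 0.6), and the limma log2 fold change was 0.12 (SE 0.215, 95% interval -0.39 to 0.62, adjusted p = 0.999). Without ketamine mouse 9 it was 0.33 (limma adjusted p = 0.512), and with any other mouse left out it lay between 0.00 and 0.18. The mean log2 level of 7 astrocyte markers, none at 0, as a difference from the saline mean, was -0.13, -0.28 and 0.41 in mice 1, 6 and 10 and 0.22, 0.15 and 0.07 in mice 3, 5 and 9. Their sum was lowest in ketamine mouse 9, at 74806 normalized counts against 94798 to 117993 in the other mice, and most of it came from Slc1a2, a glutamate transporter, with 38388 in mouse 9 and 75877 and 83363 in mice 3 and 5. Among the ketamine mice, Aqp4, Gja1 and Sox9 were also lowest in mouse 9, whereas Gfap and Aldh1l1 were highest there. Slc1a3 was lowest there by little, at 18797 normalized counts against 19559 and 18816 in mice 3 and 5. The part of the astrocyte markers in the Ntrk2 values was not tested. The genes most like Ntrk2 were 9930021J03Rik, Cep170 and Mzf1, with a root mean square difference of 0.033, 0.039 and 0.047.

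Ntrk3, the gene of TrkC, was less abundant. It had 1839, 1883 and 1372 normalized counts in mice 1, 6 and 10 of the saline group and 1329, 1503 and 766 in mice 3, 5 and 9 of the ketamine group. Ketamine mouse 5 lay above saline mouse 10, so the groups overlapped. The means were 1698 ± 283 and 1199.5 ± 385 (SD, n = 3 each; exact permutation test, two-sided, p = 0.2). The limma log2 fold change was -0.54 (SE 0.271, 95% interval -1.18 to 0.09, adjusted p = 0.943), and without ketamine mouse 9 it was -0.25 (limma adjusted p = 0.653). The genes most like Ntrk3 were the neuronal kinase gene Brsk2, the calcium pump gene Atp2a2 and Cyfip2, with a root mean square difference of 0.055, 0.077 and 0.078.

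Ngfr, the gene of p75, had the largest fitted log2 fold change of the 6 members and the widest spread among mice. It had 13.4, 15.4 and 60.4 normalized counts in mice 1, 6 and 10 of the saline group and 479, 53.6 and 88.8 in mice 3, 5 and 9 of the ketamine group. Ketamine mouse 3 stood far above the others, and ketamine mouse 5 was below saline mouse 10, so the groups overlapped. The means were 29.8 ± 26.6 and 207 ± 236 (SD, n = 3 each), a ratio of 6.96 (exact permutation test, two-sided, p = 0.2). The limma log2 fold change was 2.45 (SE 0.887, 95% interval 0.36 to 4.53). Its limma p ranked 569 among all genes tested and did not pass adjustment (limma adjusted p = 0.773, edgeR 0.688, DESeq2 0.0582). With ketamine mouse 3 left out, the log2 fold change came to 1.52 (limma adjusted p = 0.999). The SD of Ngfr within groups, 1.42 on the log2 scale, was at percentile 98.6 of the genes tested, against 68.7 for Bdnf (0.37).

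Ngfr was set beside markers of cholinergic neurons, which carry p75 in the basal forebrain. Chat, the gene of the enzyme that makes acetylcholine, had 22.0, 8.69 and 6.59 normalized counts in the saline mice and 396, 72.4 and 7.25 in the ketamine mice. It was highest in ketamine mouse 3, was next highest in ketamine mouse 5 and was no higher in ketamine mouse 9 than in the highest saline mouse. Of the 5 cholinergic markers, 4 were matched in the table, and they summed to 58.4, 38.6 and 72.5 normalized counts in the saline mice and 1372, 245 and 35.3 in the ketamine mice. Slc5a7, the choline transporter, made up most of this sum, with 919, 159 and 27.2 in the ketamine mice. Lhx8, a defining factor of these neurons, was at 0 in saline mice 6 and 10 and ketamine mouse 9, and reached 7.83 in ketamine mouse 3. Gbx2, the other matched marker, had 1.92, 2.90 and 25.3 normalized counts in the saline mice and 48.9, 10.35 and 0.91 in the ketamine mice. Unlike the other matched markers, it was higher in saline mouse 10 than in ketamine mouse 5. Ngfr was higher in saline mouse 10 than in ketamine mouse 5 (60.4 against 53.6 normalized counts), whereas Chat (6.59 against 72.4) and Slc5a7 (40.6 against 159) were lower. In ketamine mouse 9, where the cholinergic markers were low, Ngfr still had 88.8 normalized counts, and this was the library with the highest olfactory bulb markers. It was also the highest in markers of leptomeningeal fibroblasts (7 genes, none at 0), with 3586 normalized counts against 1208 to 2034 in the other mice. The part of the cholinergic, olfactory bulb and leptomeningeal markers in the Ngfr difference was not tested.

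**Figure D3:**
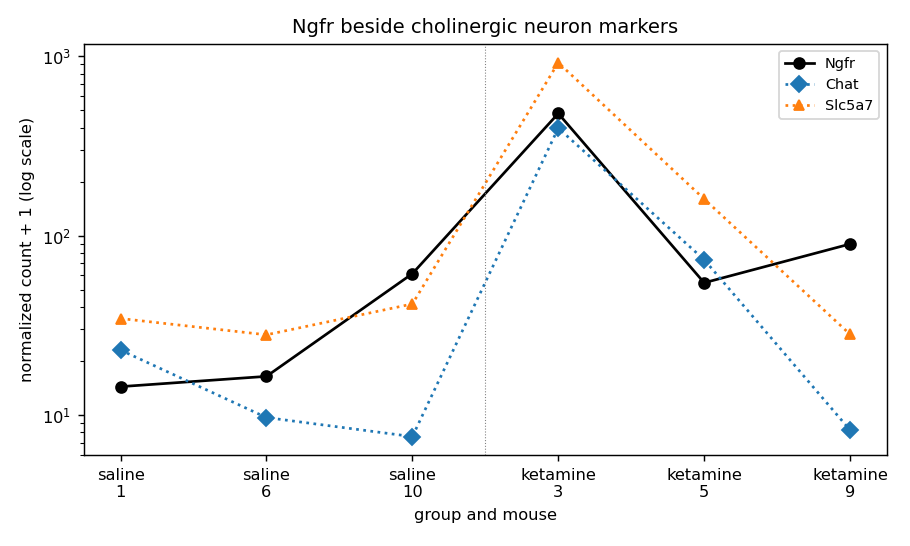
Normalized count + 1 (y axis, log scale) in each of the 6 libraries (x axis) for Ngfr, Chat and Slc5a7. Lines only join the values of a gene. All 3 genes peak in ketamine mouse 3, where Ngfr had 479 and Chat 396 normalized counts, and in ketamine mouse 9 Ngfr had 88.8 while Slc5a7 had 27.2 and Chat 7.25.

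The genes most like Ngfr were Baiap3, P2ry1, a purine receptor gene, and Tmem90a, the symbol in the table for Syndig1l, which was also on the striatal marker list. Their root mean square difference was 0.42, 0.591 and 0.676, so no gene followed Ngfr as closely as Bhlhe22 followed Bdnf. Baiap3 had 125, 108 and 291 normalized counts in the saline mice and 3591, 533 and 402 in the ketamine mice. Like Ngfr, for its likeness to which it was chosen, it was highest in ketamine mouse 3 and highest among saline mice in mouse 10.

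Sort1, the gene of sortilin, had 20534, 18199.9 and 14892 normalized counts in mice 1, 6 and 10 of the saline group. In mice 3, 5 and 9 of the ketamine group it had 12435, 17456 and 9202. Ketamine mouse 5 lay above saline mouse 10, and ketamine mice 3 and 9 were below all saline mice. The means were 17875 ± 2835 and 13031 ± 4159 (SD, n = 3 each; exact permutation test, two-sided, p = 0.2), and the limma log2 fold change was -0.49 (SE 0.255, 95% interval -1.09 to 0.11, adjusted p = 0.957). Without ketamine mouse 9 it was -0.27 (limma adjusted p = 0.713). Sort1 and Ntrk3 were both lowest in ketamine mouse 9. The genes most like Sort1 were Synj2, Hivep2 and the sodium channel gene Scn8a, with a root mean square difference of 0.053, 0.054 and 0.056.

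**Figure D4:**
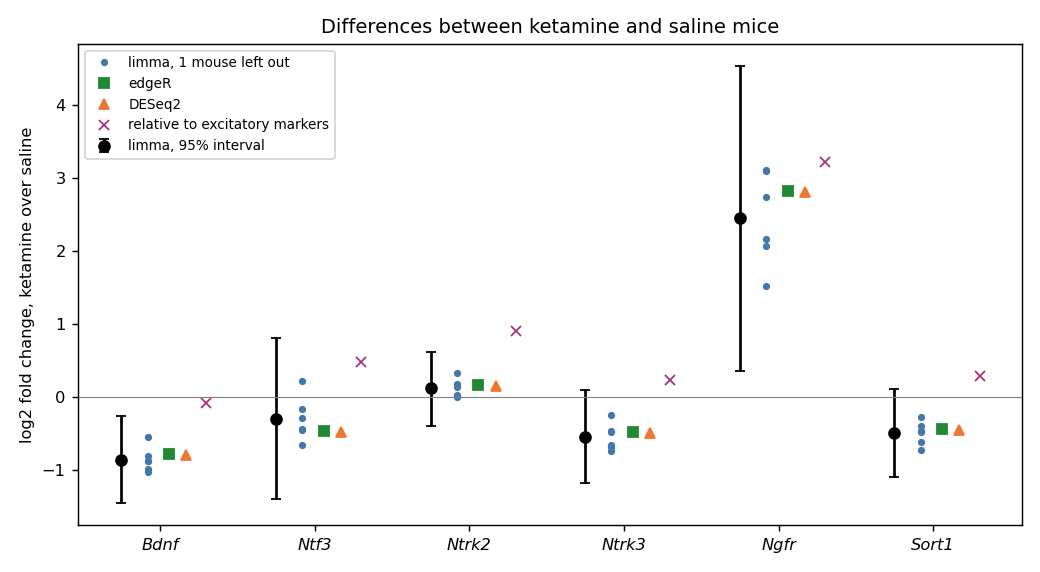
Log2 fold change, ketamine over saline (y axis), for the 6 genes (x axis). Black points and bars give limma's estimate with its 95% interval, blue points limma with 1 mouse left out, squares edgeR, triangles DESeq2 and crosses the difference after subtracting the mean of the excitatory neuron markers. The intervals of Bdnf (-1.45 to -0.26) and Ngfr (0.36 to 4.53) do not include 0 before adjustment, and the cross of Bdnf is at -0.08.

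Subtracting the mean of the excitatory neuron markers changed the other members as well. Ntrk2 was then 0.90 higher in ketamine on the log2 scale, with values of -0.04, -0.05 and 0.09 in the saline mice and 1.68, 0.71 and 0.30 in the ketamine mice, and its groups no longer overlapped (exact permutation test, two-sided, p = 0.1). Ntrk3 and Sort1 changed sign, to 0.23 and 0.29 (exact permutation p = 0.7 and 0.5), and so did Ntf3, to 0.48 (exact permutation p = 0.6). Ngfr stayed above 0, at 3.22 (exact permutation p = 0.2). On this scale a gene that did not follow the markers is moved up in the ketamine mice, in which the markers were lower. The highest marker mean of a ketamine mouse, -0.37, was below the lowest of a saline mouse, -0.27. A gene at the same level in all mice would therefore also have groups that do not overlap on this scale. The share of all genes that do not overlap on it was not computed. Among the 6 members, Bdnf had the difference nearest to 0 on this scale.

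Levels were compared between genes per kb of exon, using the merged exons of GENCODE M1. In saline mice the order of the mean levels was Sort1 (2364 normalized counts per kb), Ntrk2 (1187), Ntrk3 (324), Bdnf (176), Ntf3 (31.1) and Ngfr (8.63). The ranges of neighbours in this order did not overlap, except those of Ntf3 and Ngfr. In ketamine mice the order was Sort1 (1724 per kb), Ntrk2 (1309), Ntrk3 (229), Bdnf (101), Ngfr (60.1) and Ntf3 (22.1). There the ranges of Sort1 and Ntrk2 overlapped, as did those of Bdnf and Ngfr and of Ngfr and Ntf3. The mean RNA level of the receptors TrkB and TrkC was thus above that of their ligands in both groups, whereas that of Ngfr was below that of Bdnf. Ntrk2 exceeded Bdnf in every library, with at least 952 per kb against at most 186.

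The wider pathway was described with 89 genes in 7 lists, of which 86 passed the filter. None of the 86 was called by limma, edgeR or DESeq2, and 3 had a limma p under 0.05 before adjustment. The log2 fold change was above 0 for 42 and below 0 for 44, with a median of -0.004 against -0.014 for all genes tested. Every ketamine mouse was above every saline mouse for 4 genes (4.7%, against 5.69% of all genes) and below for 2 genes (2.3%, against 4.66%). The counts of the pathway were therefore near the background in both directions.

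Among the 9 other receptors and relatives of sortilin, 3 had a log2 fold change above 0 and 6 below (median -0.16). Those with the smallest p values included Rtn4r, the Nogo receptor that p75 partners (-0.81, limma adjusted p = 0.864), and Sorl1, a sortilin relative (-0.65, limma adjusted p = 0.897). Among the 10 tested genes of proneurotrophin processing, 7 were above 0 and 3 below (median 0.09). Pcsk5, a proprotein convertase, and Mmp9, a matrix protease, had log2 fold changes of 0.39 and 0.31 (limma adjusted p = 0.999 for both).

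Of the 33 adaptors and kinases of the Trk receptors, 14 had a log2 fold change above 0 and 19 below (median -0.02). Mapk3, the kinase ERK1, had 3409, 3514 and 3420 normalized counts in the saline mice and 3895, 4086 and 5441 in the ketamine mice. All ketamine mice were higher, with a log2 fold change of 0.36 (limma adjusted p = 0.865, edgeR 0.78, DESeq2 0.666). The study, which used DESeq2, reported a significant increase of Mapk3, whereas limma, edgeR and DESeq2 did not call it here. Sh2b2, an adaptor, had a log2 fold change of 0.27 (limma adjusted p = 0.999). Of the 12 p75 partners, 8 were above 0 and 4 below (median 0.10), led by Traf4, a signalling adaptor, with 209, 195 and 268 normalized counts in the saline mice and 302, 285 and 328 in the ketamine mice. Its log2 fold change was 0.46 (limma adjusted p = 0.797). Maged1 and Ngfrap1, which bind p75, had log2 fold changes of 0.20 and 0.22 (limma adjusted p = 0.999 for both).

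The 10 regulators of Bdnf transcription were divided, with 5 above 0 and 5 below (median 0.00). The smallest p values were those of Crtc1, a coactivator of CREB (log2 fold change -0.27), Arnt2 (-0.37) and Mef2c (-0.46), all with a limma adjusted p of 0.999. Of the 11 genes known to rise with BDNF, 4 were above 0 and 7 below (median -0.18). Nrn1, which encodes the neurite growth protein neuritin, had 7643, 7305 and 5636 normalized counts in the saline mice and 2489, 3715 and 5144 in the ketamine mice. All ketamine mice were lower, as for Bdnf, but the log2 fold change of -0.91 (SE 0.271) did not pass adjustment (limma adjusted p = 0.628, DESeq2 0.158). Fos, an immediate early gene, varied among saline mice, with 141, 409 and 752 normalized counts against 603, 1086 and 1100.4 in the ketamine mice, and its log2 fold change was 1.35 (limma adjusted p = 0.865). Cort, the gene of cortistatin, had a log2 fold change of -0.44 (limma adjusted p = 0.999).

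**Figure D5:**
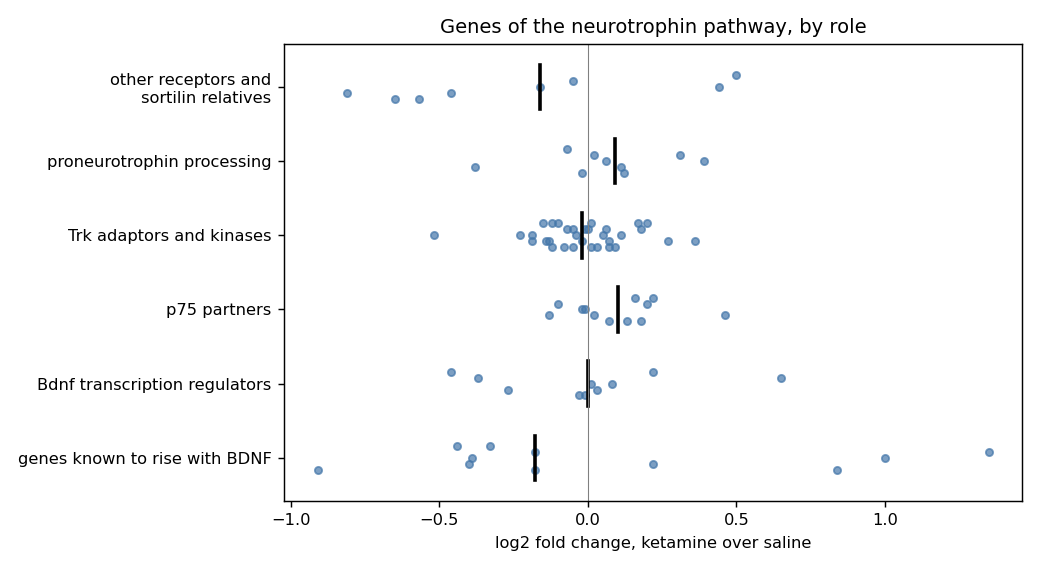
Log2 fold change, ketamine over saline (x axis), of 82 tested genes of the neurotrophin pathway, in 6 rows by role. Each point is a gene and each black bar is the median of the tested genes of its list as given in the text. The medians lie between -0.18 and 0.10.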

How the data were processed

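RNA Seq of the PLc was performed in 3 saline and 3 ketamine mice, grouped by their sample labels. Per the submitters' processing notes, the tools were CASAVA, TopHat2 2.0.11, HTSeq and DESeq2, with mm9. The authors deposited a signal per gene, namely read counts scaled by the size factor of their library and rounded. The annotation and strand setting are not given in the sources used here. The value of 1 read was found for each library, and division by it gave whole reads for 100.0% of values (tolerance 0.006 normalized counts).

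Log2(normalized count + 1) was compared with limma 3.58.1 (R 4.3.3), with a variance trend and two-sided Benjamini-Hochberg adjusted p-values at 0.05, in genes with a mean of at least 10. edgeR 4.0.16 and DESeq2 1.42.0 on recovered reads were alternatives. Tests were checked on simulated reads. GENCODE M1 held 37205 of the 37620 identifiers. The deposited table gave symbols for 20515 genes, and 16730 more came from a list of gene names. Of 175 listed pathway and marker genes, 174 were matched.

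Members and lists were chosen with earlier results of these data known. Named genes were the 6 members, Ntf5, the 3 genes of each pathway list with the smallest p, the 3 genes most like each member, and markers set beside a member. Some genes that this rule names are not reported here. Other assays of the study were not analysed here.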

Additional observations from a re-analysis of the deposited data

How the results depend on the processing

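Over 101 alternatives for the 6 members, 97 kept the sign and 4 reversed it. Of the 95 with an adjusted p, 0 brought a member past the threshold, and the 6 relative to excitatory neuron markers have only an exact permutation p, which cannot go under 0.1. The reversals were Ntf3 without saline mouse 10 (0.22), and Ntf3 (0.48), Ntrk3 (0.23) and Sort1 (0.29) relative to excitatory neuron markers, and their cause was not tested. With each mouse left out in turn, log2 fold changes ranged from -1.02 to -0.55 for Bdnf, -0.65 to 0.22 for Ntf3, 0.00 to 0.33 for Ntrk2, -0.74 to -0.25 for Ntrk3, 1.52 to 3.11 for Ngfr and -0.73 to -0.27 for Sort1. Under the other pseudocounts, filters, scalings and tools they ranged from -0.86 to -0.78 for Bdnf (adjusted p 0.177 to 0.697 by limma, edgeR or DESeq2) and from 2.25 to 2.82 for Ngfr (0.0582 to 0.893). Ntf3 has no value under a filter of 100 normalized counts. Genes called over the whole table numbered 0 with limma, 182 with DESeq2 and 0 to 1 with a mouse left out. The call was Trh without ketamine mouse 5 and Cdhr1 without ketamine mouse 9. The alternatives for the pathway lists were chosen after seeing the data, and 0 pathway genes were called under any of them, by limma, edgeR or DESeq2. With 3 mice a group, Ntf3 at 24 to 72 reads and Ngfr at 14 to 489 reads per library are the least precise members. No paired analysis was possible because the groups share no mouse numbers.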
